A study of Mus musculus with 6 samples.

Results

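The cytosolic ribosomal protein genes of pathogenic Th17 cells were compared between WT and RORγt N275D libraries, with the genes of the large and the small ribosomal subunit kept apart. They were taken by symbol: every gene named *Rpl* or *Rps* followed by a number, with or without a final a, x or l, together with *Rplp0*, *Rplp1*, *Rplp2*, *Rpsa* and *Fau*. This gave 82 of the 16244 genes measured, 50 of the large and 32 of the small subunit, which lie on 20 chromosomes. All had a row of values. 80 of them (48 large, 32 small) had a mean of at least 10 normalized reads over the libraries and were tested.

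The series holds 6 RNA-seq libraries, 3 from WT and 3 from RORγt N275D cells. Naive CD4+ T cells, which the labels assign to the spleen, came from WT C57BL/6 mice or from mice carrying the N275D point mutation of RORγt, the transcription factor that defines the Th17 lineage, as a knockin at its own locus. All cells were activated with anti-CD3 and anti-CD28 and kept for 3 days under pathogenic Th17 conditions. These give the kind of Th17 cell linked to autoimmune tissue damage. The authors' results name IL-6, IL-1β and IL-23 for these conditions. Their methods add IL-1β and IL-23 to a mixture of TGF-β, IL-6 and antibodies against IL-4 and IFN-γ. Donor mice were 6 to 12 weeks old unless noted otherwise, every cell of a knockin animal carries the allele, and the zygosity of the donors is not given by the labels used here. Nothing says whether the 3 libraries of a genotype came from separate animals or cultures, so the p-values measure the spread between these libraries, which may be technical.

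A ribosome is built from ribosomal RNA and one copy of most of these proteins, apart from the acidic stalk proteins P1 and P2, which are present as dimers. The small subunit reads the mRNA, and the large subunit joins amino acids and passes the growing chain through its exit tunnel. T cells enlarge and make more ribosomes when they are activated. Mammalian ribosomal protein mRNAs typically begin with a C followed by a run of pyrimidines, the 5′ terminal oligopyrimidine (TOP) motif, through which mTOR signaling sets how well they are translated. An mRNA level therefore does not give the rate at which the protein is made.

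Promoters from RefSeq (GRCm38.p6), which reach from 250 bases before to 50 bases after an annotated start, were found for 61 of the 82 genes. Some genes had several annotated starts, and a gene was counted if any of its promoters held the feature. A C at the annotated start followed by 4 bases that are each C or T was present in 15 of these 61 (24.6%), against 3.01% of 27025 genes. A run of 8 bases that are each C or T, lying anywhere from 10 bases before to 20 bases after the start, was present in 25 (41.0%), against 13.0% of genes. An annotated start that is off by a few bases removes the first feature but not the second. The letters CCGGAAG, the core that ETS factors including GABP bind, stood on either strand of 25 promoters (41.0%), against 9.93% of genes. TATAAA was in none of the 61 in the 50 bases before the start on the gene strand, against 3.15% of genes. The windows below run 5′ to 3′ on the gene strand for 30 bases, 15 before the start and 15 from it. The capitals mark the run of C and T that begins at the annotated start. The start used for *Rpl38* lies inside the gene, downstream of its first annotated base. The first 4 belong to genes that were higher in RORγt N275D libraries, the next 2 to genes that were not called, then follow *Rps7*, which was higher without such a run, and *Rpl41*, which was lower.
Rps18, chr17:33955651-33955680, minus strand: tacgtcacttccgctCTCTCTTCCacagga
Fau, chr19:6057932-6057961, plus strand: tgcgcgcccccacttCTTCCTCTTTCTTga
Rpl38, chr11:114668565-114668594, plus strand: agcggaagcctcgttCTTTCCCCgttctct
Rps6, chr4:86857353-86857382, minus strand: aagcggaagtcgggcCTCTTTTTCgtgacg
Rplp2, chr7:141447636-141447665, plus strand: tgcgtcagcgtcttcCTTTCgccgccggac
Rps27, chr3:90213634-90213663, minus strand: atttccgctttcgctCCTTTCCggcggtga
Rps7, chr12:28635939-28635968, minus strand: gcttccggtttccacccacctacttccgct
Rpl41, chr10:128549154-128549183, minus strand: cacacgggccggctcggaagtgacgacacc

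With the smallest value of each library taken as 1 read, the libraries held 17659035 to 18510878 reads on genes, so that highly expressed members were limited by the spread between libraries and not by counting. WT replicate 3 stood farthest from its group, with a median chi-square of 2.95 and 3.02 times what counting gives, on the same assumption, against the other WT libraries. Its distance was uneven over the ribosomal protein genes. The 9 members with a coding sequence under 300 bases had a median deviation of 0.18 (log2) from their means over all libraries in WT replicate 3, and the members of 500 bases or more one of -0.04. Results that rest on short members are therefore given with and without that library. The Th17 markers checked against the label were present in all libraries: *Cd4* had 8901, 9007 and 9520 normalized reads in WT and 7621, 7577 and 7575 in RORγt N275D libraries, and *Il17a*, the cytokine of the lineage, had 27430, 27888 and 27166 against 31814, 32673 and 31970. Markers of B cells moved with genotype at a low level: the 4 detected of 5 listed summed to 78.7 to 94.3 in WT and 141 to 180 normalized reads in RORγt N275D libraries. The 4 of 5 CD8 and NK cell markers detected went from 182 to 195 up to 251 to 281, and the 5 myeloid markers had 81.8 to 92.8 and 82.0 to 106. *Ighm* and *Ncr1* had no row, and each of these 3 sums was at most 0.00159% of a library's reads. The sums hide members that went apart. *Cd8b1* and *Eomes* were called higher (log2 fold change 0.58 and 0.69), *Cd8a* (-0.22) was not called and *Klrb1c* was under the filter. Of the 2 myeloid markers tested, *Cd68* (0.32) was not called and *Adgre1* was lower (-1.70). *Adgre1* had 19.2, 23.2 and 25.5 reads in WT and 9.98, 4.01 and 5.93 in RORγt N275D libraries. The part of such cells in the results below was not tested.

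Ribosomal protein genes took a larger share of the reads in RORγt N275D than in WT libraries, and the ratio was alike for the 2 subunits. The large subunit genes held 4.27%, 4.22% and 4.34% of the normalized reads of the WT libraries and 4.57%, 4.63% and 4.61% of those of the RORγt N275D libraries. The genotypes did not overlap, and the means were 4.28% ± 0.0609 and 4.60% ± 0.0271 (SD, n = 3 each), a ratio of 1.08. The small subunit genes held 2.87%, 2.77% and 2.90% in WT and 3.06%, 3.13% and 3.07% in RORγt N275D libraries. These did not overlap either, with means of 2.85% ± 0.0669 and 3.09% ± 0.0395 (SD, n = 3 each) and again a ratio of 1.08. With 3 libraries a group, the smallest two-sided exact permutation p is 0.1. The libraries' total normalized reads were 18115694 ± 58693 in WT and 17689162 ± 24900 in RORγt N275D (SD, n = 3 each), a ratio of 0.976. Part of the rise in share is this smaller total, and the gene tests below use the normalized reads themselves. All values are relative to the library, and in these bulk samples a change in the mix of cells and a change of RNA per cell cannot be told apart.

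**Figure D1:**
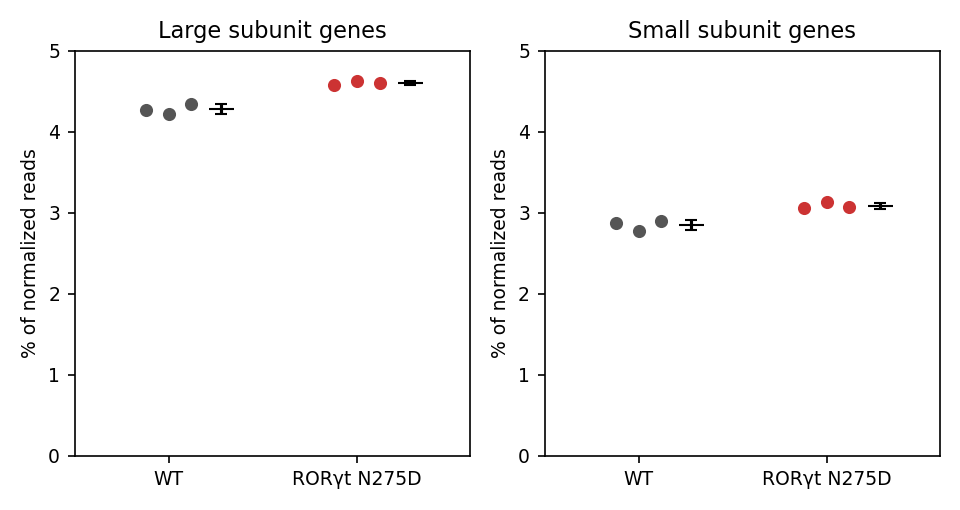
Percent of each library's normalized reads on the 50 large subunit genes (left) and the 32 small subunit genes (right), one point per library, with the mean and SD of 3 libraries beside them. The 3 RORγt N275D libraries lie above the 3 WT libraries in each panel (means 4.60% against 4.28% and 3.09% against 2.85%).

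Gene by gene the changes were small and mostly upward. With limma and Benjamini-Hochberg adjustment over all 11908 genes tested (called at an adjusted p under 0.05), 17 of 48 large subunit genes were higher in RORγt N275D libraries and 1 was lower, that is 35.4% and 2.08%. Of the 32 small subunit genes 14 were higher and 1 was lower, that is 43.8% and 3.13%. Over all genes, 50.9% were called, 24.7% higher and 26.1% lower. The share of members called higher was thus above that of all genes and the share called lower far below it. The median log2 fold change was 0.07 for the large and 0.08 for the small subunit genes, beside -0.00 for all genes tested. Without WT replicate 2 these medians were 0.04 and 0.07. Among genes outside the set with a mean of at least 2000 normalized reads, a comparison chosen after the values were seen, 386 of 2046 were higher and 960 lower, with a median of -0.09.

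Complete separation of the libraries gave a like count. In 21 large and 15 small subunit genes each RORγt N275D library was above each WT library, and in 3 large and 2 small subunit genes each was below. Over all genes these shares were 28.1% and 29.6%. A 2-fold change was called in 3.59% of all genes and in 1 member, *Rpl39l*. Of the 33 members called, 24 were called whichever library was left out and 21 under every setting that tested them (*Rpl39l*, one of the 21, was not tested with a mean of at least 100). Without WT replicate 3, 42 of the 80 members were higher and 2 lower, and without WT replicate 2, 25 were higher and 3 lower.

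**Figure D2:**
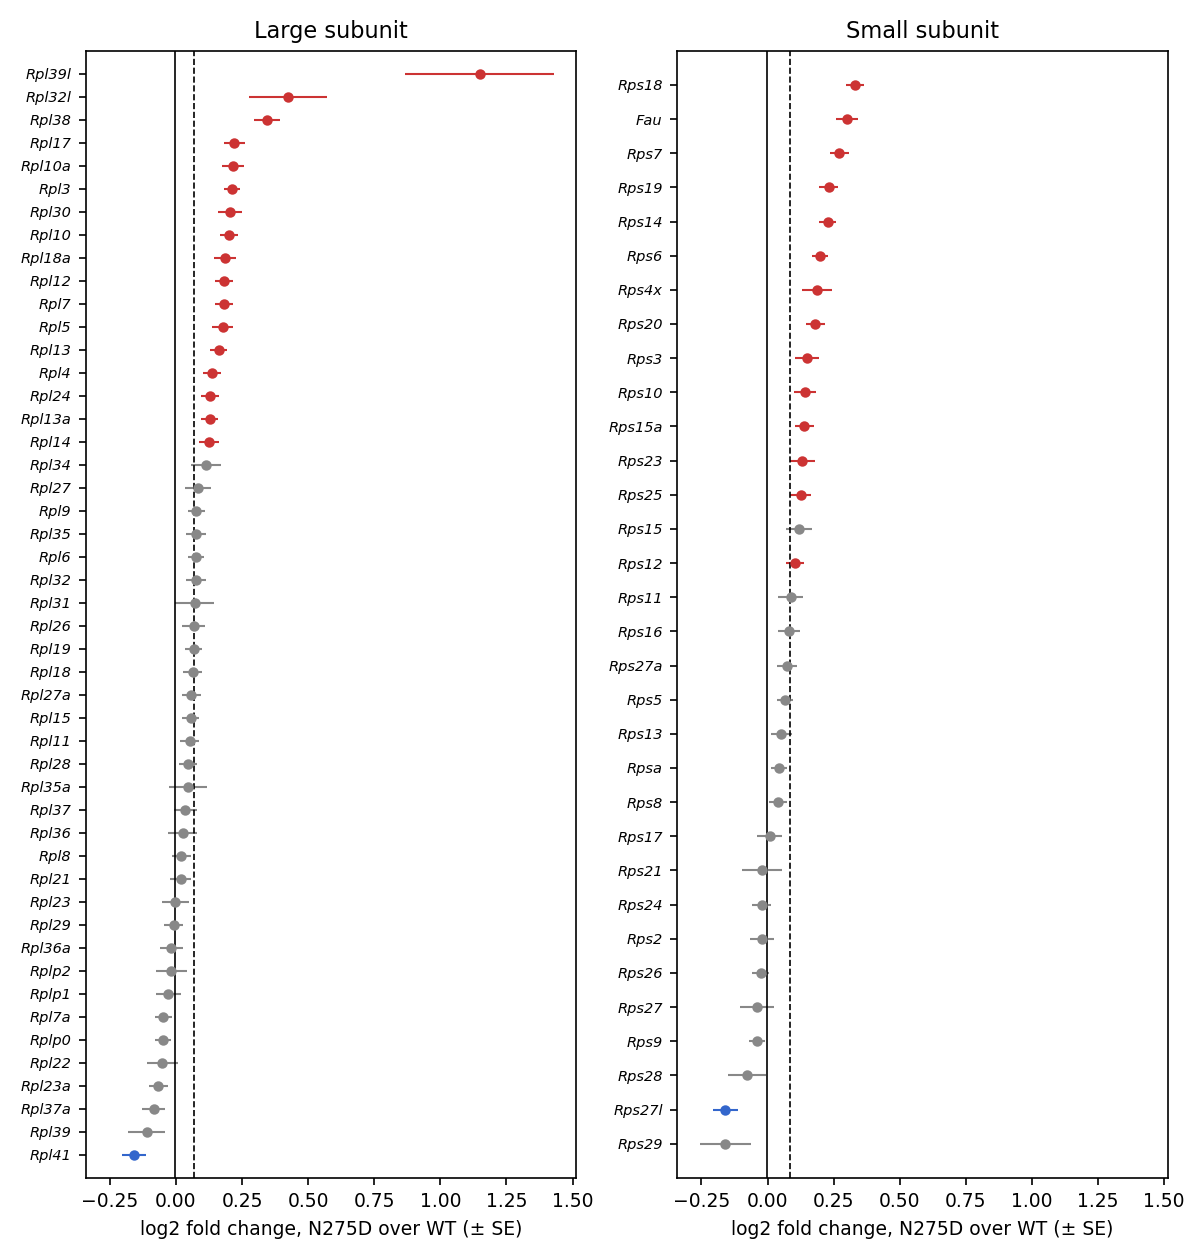
log2 fold change (RORγt N275D over WT, ± SE) of the 48 large (left) and 32 small (right) subunit genes tested, ordered by value, with called genes in red (higher) or blue (lower), the others in grey and the median of each subunit as a dashed line. Most points lie right of 0 (36 of 48 and 23 of 32), *Rpl39l* stands alone past 1, and *Rpl41* and *Rps27l* are the called genes to the left.

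The small subunit genes that rose were led by *Rps18* and *Fau*. *Rps18*, a protein of the subunit's head, had 15934, 16448 and 16518 normalized reads in the WT libraries and 19986, 21278 and 20178 in the RORγt N275D libraries. The lowest mutant library was well above the highest WT one, and the log2 fold change was 0.33 ± 0.03 (SE), with an adjusted p of 9.6e-07 by limma. *Rps18* lies on chromosome 17 (33951998 to 33955665, GRCm38). *Fau* (chromosome 19, 6057947 to 6059524) encodes a ubiquitin-like protein fused to a small subunit protein. Its reads were 8037, 7633 and 8675 in WT and 10044, 9932 and 9925 in RORγt N275D libraries, without overlap, a log2 fold change of 0.30 ± 0.04 (limma adjusted p = 2.1e-05).

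*Rps7*, *Rps19* and *Rps14* followed. *Rps7*, whose protein takes part in small subunit assembly, had 11551, 10568 and 11024 reads in WT and 13612, 13174 and 13208 in RORγt N275D libraries, which do not overlap (0.27 ± 0.04). *Rps19*, the gene most often mutated in Diamond-Blackfan anemia, had 8089, 7589 and 7817 against 9357, 9212 and 9012 reads, again without overlap (0.23 ± 0.04). *Rps14*, haploinsufficient in the 5q- syndrome, had 17511, 17100 and 17430 against 20158, 20471 and 20268 reads (0.23 ± 0.03). In all 3 genes the genotypes were fully apart, and their limma adjusted p-values lay between 1.5e-05 and 5.2e-05.

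*Rps6*, the substrate of S6 kinase that is widely used to read mTOR activity, had 21927, 21927 and 21776 reads in WT and 24525, 25866 and 24934 in RORγt N275D libraries. The groups were apart, with a log2 fold change of 0.20 ± 0.03 (limma adjusted p = 8.5e-05). *Rps3*, which lines the mRNA entry channel, had 27110, 24119 and 27852 against 29582, 29590 and 28393 reads. All mutant libraries were higher (0.15 ± 0.04, limma adjusted p = 0.011), but the call was lost without WT replicate 2 (adjusted p = 0.062). *Rpsa*, the laminin receptor homologue, gave 0.04 ± 0.03 and was not called (limma adjusted p = 0.256).

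Of the 14 proteins of the head 7 genes were higher and none lower, with a median log2 fold change of 0.11. Of the 17 of the body and platform 7 were higher and none lower, with a median of 0.05. The shares over all genes tested were 24.7% higher and 26.1% lower. The difference between the head and the body and platform was not tested. At the bottom of the subunit stood *Rps29*, *Rps27l*, *Rps28*, *Rps9*, *Rps27* and *Rps26*, of which the paralog *Rps27l* alone was called. *Rps29*, a short zinc-binding protein of the head, had 6371, 6493 and 8667 reads in WT and 6916, 6844 and 5432 in RORγt N275D libraries. The 2 genotypes overlapped, and the high WT value is that of replicate 3. Its log2 fold change was -0.16 ± 0.10 with that library (limma adjusted p = 0.183) and -0.02 without it. *Rps28* likewise went from -0.08 to 0.04, neither of them called, and *Rps21* from -0.02 to a called 0.10 (adjusted p = 0.028).

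Among large subunit genes, *Rpl38* had the largest change of any member without a final l. *Rpl38*, whose loss in mice disturbs the axial skeleton through the translation of certain Hox mRNAs, lies on chromosome 11 (114667818 to 114672333). Its reads were 2345, 2309 and 2181 in WT and 2689, 3048 and 2944 in RORγt N275D libraries. The groups were well apart, and the log2 fold change was 0.34 ± 0.05 (limma adjusted p = 2.4e-05), or 0.31 without WT replicate 3. *Rpl3*, an early assembling protein near the peptidyl transferase center, had 37782, 38272 and 37521 reads in WT and 44371, 44367 and 42832 in RORγt N275D libraries. It was more tightly grouped than *Rpl38* and also without overlap (0.21 ± 0.03, limma adjusted p = 3.1e-05). *Rpl10a* had 14633, 13206 and 14686 against 16242, 16108 and 16955 reads, also apart, and a log2 fold change of 0.21 ± 0.04.

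The acidic stalk, the lateral arm that recruits elongation factors, had 1 gene called higher of 4, a share near the 24.7% of all genes. *Rpl12*, at its base, had 24871, 25971 and 26733 reads in WT and 29994, 29245 and 28750 in RORγt N275D libraries (0.18 ± 0.03, limma adjusted p = 0.00037). *Rplp0*, the stalk's scaffold, had 89377, 90457 and 89383 in WT and 86468, 86941 and 86842 in RORγt N275D libraries. Each mutant library was lower here, by a log2 fold change of -0.05 ± 0.03 that was not called (limma adjusted p = 0.175). *Rplp1* and *Rplp2* were at -0.03 and -0.02, and at 0.04 and 0.05 without WT replicate 3, in neither case called.

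The pair that carries the 5S ribosomal RNA into the subunit, and that binds Mdm2 when ribosome assembly is disturbed, differed in its call. *Rpl5* had 21860, 23999 and 22624 reads in WT and 24690, 26846 and 25914 in RORγt N275D libraries, all higher (0.18 ± 0.04, limma adjusted p = 0.0015). *Rpl11* had 12001, 11411 and 12489 against 12592, 12484 and 12116 reads, which overlap (0.05 ± 0.04, adjusted p = 0.262). Without WT replicate 3 it was called at 0.08 (adjusted p = 0.020). The difference between the 2 genes was not tested.

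Of 8 genes for proteins around the exit tunnel 2 were higher, a share near the 24.7% of all genes, and none lower. *Rpl17* led them with 10192, 10024 and 10682 reads in WT and 11277, 12171 and 12602 in RORγt N275D libraries (0.22 ± 0.04, limma adjusted p = 0.00034), and *Rpl4* had 0.14 ± 0.03. Of 4 late-joining proteins, *Rpl10* (0.20) and *Rpl24* (0.13) were higher, *Rpl29* was at -0.01 and not called, and *Rpl41* was lower. *Rpl41* encodes the smallest of these proteins. Its reads were 20583, 18787 and 21844 in WT and 18557, 17993 and 18168 in RORγt N275D libraries. The closest values of the genotypes were near each other but did not overlap, and the log2 fold change was -0.16 ± 0.04 (limma adjusted p = 0.0067). It was -0.11 without WT replicate 3 (adjusted p = 0.0053), and the call was lost with a variance prior that ignores expression (adjusted p = 0.084). The other large subunit genes, 28 in number, had 9 higher (32.1%, beside 24.7% of all genes) and none lower. Low in the subunit after *Rpl41* stood *Rpl39*, one of the 8 tunnel genes (-0.11), *Rpl37a* (-0.08), *Rpl23a* (-0.07) and *Rpl22* (-0.05), none of them called. Without WT replicate 3 they were at -0.01, -0.03, -0.04 and -0.01.

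Members with an l ending are named as paralogs of the core genes, some of them used in particular tissues. No coding length was found for *Rpl32l* and *Rpl6l*, and whether they encode a protein was not tested. *Rpl39l*, known from the male germ line, had 12.1, 11.1 and 6.88 reads in WT and 22.0, 25.1 and 21.7 in RORγt N275D libraries. All mutant libraries were higher, with a log2 fold change of 1.15 ± 0.28 (limma adjusted p = 0.0029). Without WT replicate 3, the lowest, it was 0.92 (adjusted p = 0.0088). At 10.03 ± 2.78 (SD, n = 3) reads in WT the gene sits at the edge of the filter, and there were 0.186 and 0.447 *Rpl39l* reads for 100 of *Rpl39*. *Rpl32l* had 85.8, 55.5 and 72.7 against 98.8, 90.3 and 94.8 reads (0.42 ± 0.15, limma adjusted p = 0.024). Its call was lost without WT replicate 2 (adjusted p = 0.131) and without RORγt N275D replicates 1 (0.079) or 3 (0.063). For 100 reads of *Rpl32* there were 0.614 of *Rpl32l* in WT and 0.778 in RORγt N275D libraries (means). Whether some of these are stray reads of *Rpl32* was not tested.

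*Rps27l*, a p53 target, ran the other way. It had 2074, 2086 and 1925 reads in WT and 1882, 1819 and 1745 in RORγt N275D libraries. Each mutant library was lower, with a log2 fold change of -0.16 ± 0.05 (limma adjusted p = 0.0089) and -0.20 without WT replicate 3, and the call was lost without RORγt N275D replicate 3 (adjusted p = 0.058). Against *Rps27* its ratio was 59.9 ± 6.97 in WT and 55.2 ± 7.21 reads per 100 (SD, n = 3 each), which overlap (exact permutation p = 0.5). The heart and muscle paralog *Rpl3l* had no read in the WT libraries and at most 1 elsewhere, and *Rpl6l* had 0 to 3.03 reads in the 6 libraries. Both were under the filter, and neither was compared.

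A list of 9 paralogs holds *Rpl39l*, *Rps27l* and *Rpl3l* and some genes named outside the set, but neither *Rpl32l* nor *Rpl6l*. It had 7 with a row and 5 tested, with 3 higher and 2 lower. All 5 were thus called, beside 50.9% of all genes (24.7% higher and 26.1% lower). *Rpl36al*, one of the 3 higher, lost its call when certain libraries were left out (highest limma adjusted p 0.143). *Rpl22l1*, the partner that Rpl22 represses, had 821, 780 and 791 reads in WT and 1072, 1117 and 1015 in RORγt N275D libraries (0.42 ± 0.05, limma adjusted p = 5.8e-06). *Rpl7l1*, which works in nucleolar pre-ribosomes, had 4053, 3893 and 3760 against 3174, 3293 and 3249 reads (-0.27 ± 0.04, adjusted p = 3.5e-05). Set against their core genes, *Rpl22l1* had 14.9 ± 0.844 reads per 100 of *Rpl22* in WT and 20.7 ± 2.92 in RORγt N275D libraries, and *Rpl7l1* had 20.05 ± 0.104 and 14.7 ± 0.265 per 100 of *Rpl7* (SD, n = 3 each). In both pairs the genotypes did not overlap. The same held for *Rpl39l*, *Rpl32l* and *Rpl36al* against *Rpl39*, *Rpl32* and *Rpl36a*, each ratio higher in RORγt N275D libraries. In each of these pairs the exact permutation p was 0.1, the smallest that 3 against 3 libraries allow. It was 0.12 after Benjamini-Hochberg adjustment over the 6 pairs compared.

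**Figure D3:**
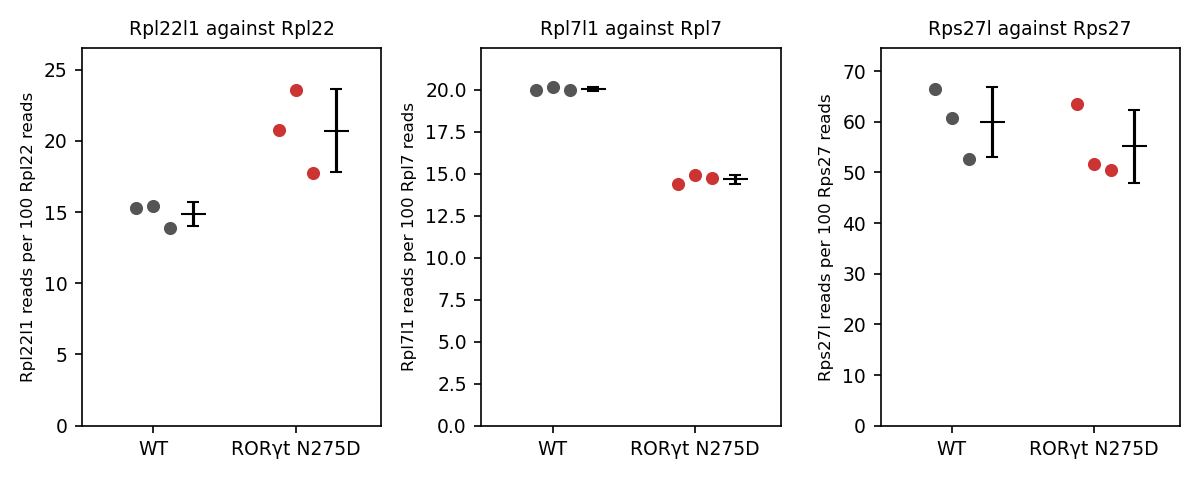
Normalized reads of *Rpl22l1*, *Rpl7l1* and *Rps27l* per 100 reads of *Rpl22*, *Rpl7* and *Rps27*, one point per library, with the mean and SD of 3 libraries beside them. The genotypes are apart for *Rpl22l1* (higher, 20.7 against 14.9) and *Rpl7l1* (lower, 14.7 against 20.05) and overlap for *Rps27l*.

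The genes with the highest level per coding length included *Rpl12*, called higher, *Rpl41*, called lower, and 4 that were not called. Among all genes 50.9% were called. Among large subunit genes *Rpl41*, *Rplp0* and *Rpl12* had the most reads per kilobase of coding sequence, with 144712 ± 10895, 94066 ± 652 and 51924 ± 1880 in WT libraries (SD, n = 3). *Rpl12* cannot be told from *Rpl23a* next to it (51042 ± 2081) by their spread. For *Rpl41* this overstates the level most, since reads also fall on untranslated parts and its coding sequence is very short. Among small subunit genes *Rps2*, *Rpsa* and *Rps24* led with 105013 ± 6398, 63421 ± 405 and 44010 ± 1056. *Rps24* cannot be told from *Rps12* next to it (43727 ± 994) by their spread. *Rps2*, *Rpsa*, *Rps24* and *Rplp0* were not called. Over the 77 members without an l ending that were tested, Spearman's rho between log2 fold change and mean reads was 0.146, a description over genes that share the same 6 libraries.

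Fold changes and their spread were set against coding length. Of 9 members with a coding sequence under 300 bases 1 was higher (*Rpl38*) and 1 lower (*Rpl41*), with a median log2 fold change of -0.08. Of 39 with 300 to under 500 bases 13 were higher and none lower, with a median of 0.07, and of 29 with 500 or more 15 were higher and none lower, with a median of 0.12. Of the other genes under 300 bases, 19.2% were higher and 34.5% lower, with a median of -0.07 close to that of the short members. For other genes of 300 to under 500 bases the shares were 20.6% and 26.9% (median -0.03), and from 500 bases on 2667 of 10676 were higher and 2802 lower (median -0.00). Spearman's rho of fold change and coding length was 0.339 over these 77 members and 0.0432 over 11594 other genes. The spread went the other way: the median SD within a genotype was 0.13 (log2) in the shortest and 0.04 in the longest class, with a rho of -0.584. Without WT replicate 3 the medians of the shortest and longest class were 0.01 and 0.10. With trends of each library over GC content and transcript length removed they were -0.03 and 0.17, and the medians of the large and small subunit genes were 0.12 and 0.12.

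**Figure D4:**
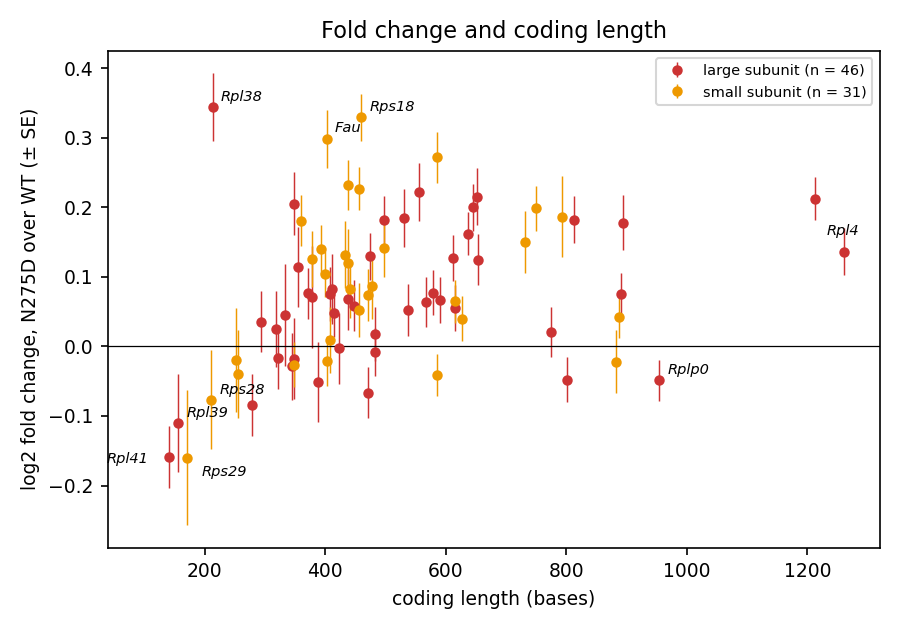
log2 fold change (RORγt N275D over WT, ± SE) of 77 members without an l ending against annotated coding length in bases, large subunit genes in red and small subunit genes in orange. Short genes scatter on either side of 0 with long error bars, and of the 29 genes of 500 bases or more 15 are called higher and none lower.

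Genes with and without a TOP-like start stood on both sides of the call. Of 15 members with a C and 4 pyrimidines at the annotated start, 8 were higher, with a median log2 fold change of 0.12, and of the other 45 that had a promoter and were tested 16 were higher, with a median of 0.07. Members with a run of 8 pyrimidines near the start had a median of 0.07 (10 of 25 higher) and those without one a median of 0.08 (14 of 35 higher). With CCGGAAG in the promoter 7 of 25 were higher, and without it 17 of 35. Over all genes 24.7% were higher, a share near that of the members with CCGGAAG. The 4 windows shown first and the 2 that follow them carry the same kind of start and differ in their call.

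Genes outside the set gave 3 different pictures. Ribosomal components that the names miss went with the members: *Rpl36al* (0.15), *Rack1* (0.13), the kinase scaffold on the small subunit head, and *Rps3a1* (0.12) were higher. *Rps27rt* was under the filter. The calls of *Rpl36al* and *Rps3a1* were lost when certain libraries were left out (highest adjusted p 0.143 and 0.055). Other mRNAs known for a TOP motif were divided, 7 of 18 higher and 6 lower (38.9% and 33.3%, beside 24.7% and 26.1% of all genes). *Vim*, which encodes vimentin, had 32079, 31069 and 33357 reads in WT and 42070, 41985 and 42759 in RORγt N275D libraries (0.39 ± 0.03). *Eef1a1*, which brings aminoacyl-tRNA to the ribosome, had 130090, 132458 and 120748 against 162182, 160621 and 161494 (0.34 ± 0.04), while *Nap1l1* was at -0.30 and *Eef1d* at -0.27, both lower.

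Most of the listed genes that serve ribosomal proteins before and during assembly fell. Of 10 chaperones and late assembly factors none was higher and 8 were lower, with a median log2 fold change of -0.25. Over all genes 24.7% were higher and 26.1% lower. *Grwd1*, a chaperone of Rpl3, had 2002, 1835 and 1988 reads in WT and 1250, 1246 and 1164 in RORγt N275D libraries, far apart (-0.67 ± 0.05, limma adjusted p = 1.5e-08). *Tsr2*, which escorts Rps26, had 1184, 1164 and 1097 against 796, 830 and 746 reads (-0.54 ± 0.05), while *Rpl3* rose and *Rps26* was at -0.03 and not called. *Eif6*, which keeps the free large subunit from joining, was at -0.04 and not called (adjusted p = 0.346).

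The proteins of the mitochondrial ribosome, encoded in the nucleus as well, leaned the other way from the cytosolic ones. Of 78 tested 1 was higher and 41 were lower, that is 1.28% and 52.6%, with a median of -0.16. Over all genes these shares were 24.7% and 26.1%. The mitochondrial genes' share of the normalized reads was 0.398% ± 0.00766 in WT and 0.362% ± 0.00165 in RORγt N275D libraries (SD, n = 3 each), without overlap. The large and the small mitochondrial subunit had medians of -0.16 and -0.16.

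**Figure D5:**
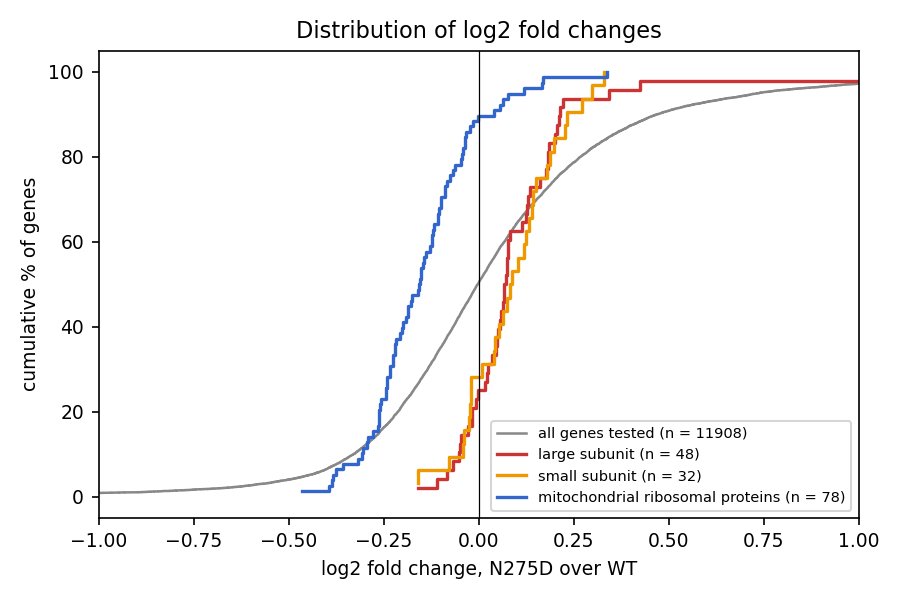
Cumulative percent of genes by log2 fold change (RORγt N275D over WT) for the large and the small cytosolic subunit, the mitochondrial ribosomal proteins and all 11908 genes tested, with the axis held between -1 and 1 (*Rpl39l* lies beyond it). The cytosolic curves are narrow and shifted right (medians 0.07 and 0.08) and the mitochondrial curve is shifted left (-0.16).

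Reads shared with near-identical copies limit these values. The GENCODE annotation names 293 pseudogenes after 60 of the members, most for *Rpl31* (24), *Rps12* (23) and *Rpl21* (15), and how reads that map to several places were counted is not given in the sources used here. Few such copies had rows. *Rps15a-ps5* had 844 to 1035 reads and was higher in RORγt N275D libraries like its parent. How far such sharing moves a member's value was not tested.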

How the data were processed

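Labels gave each library's genotype and replicate number. In the authors' methods, reads of paired-end, strand-specific polyA libraries were trimmed, mapped with STAR to mm10, assigned to genes by featureCounts and tested with DESeq2. The table the authors deposited gives normalized reads per gene (a signal), each a whole multiple, within 1e-06, of the smallest value of its library. The group averages, log2 fold changes and q-values that the authors deposited beside them were not used.

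The members and gene lists were chosen with earlier results of these data known. limma (version 3.58.1, R 4.3.3, trended prior, no block) was run on values log-transformed as log2(normalized reads + 1) for genes averaging at least 10 (11908 genes), so fold changes of low genes are understated. p-values were adjusted by Benjamini-Hochberg over all of them. The method was tested on simulated data. The simulation held far fewer changed genes than were called here, larger changes than those of most members and no outlying library. It therefore does not show how well changes as small as most members' are found. Ratios of 2 genes were compared by two-sided exact permutation. Genes were named by rule: in each subunit the 6 highest and 6 lowest fold changes and the 3 with the most reads per kilobase of coding sequence, genes of known role, all paralogs, all genes under the filter, and the extremes of the other lists. Other genes were named after their values were seen. Coding lengths came from GENCODE and promoters from RefSeq. Alternatives in pseudocount, filter, scaling, variance prior, weights, block, GC content and length, and libraries left out in turn were tried. Correlations of same-numbered libraries' deviations were -0.05, 0.04 and -0.08, and those of differently numbered ones -0.05 to 0.09. They give no sign of pairing by number, but with 3 libraries a genotype they cannot exclude it.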

Additional observations from a re-analysis of the deposited data

How the results depend on the processing

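No member of either subunit that was called changed direction under any setting. With 17 large and 14 small subunit genes higher, quantile normalization gave 27 large subunit genes higher, 3 lower and 0 at 2-fold, with medians of 0.12 (large) and 0.14 (small). Removing GC content and length trends gave 28 large subunit genes higher and a small subunit median of 0.12. A prior without a trend gave 0 large subunit genes lower and 8 small subunit genes higher. The 1 large subunit gene at 2-fold was lost (0) with a pseudocount of 10 and with a mean of at least 100. Leaving out 1 library gave 15 to 24 large and 10 to 18 small subunit genes higher, 1 to 2 and 0 to 1 lower, and 0 to 1 large subunit genes at 2-fold (0 without WT replicate 3). Large subunit genes lower were 2 without WT replicate 1 or 2, and small subunit genes lower 0 without RORγt N275D replicate 3. *Rps21*, not called at -0.02, ranged from -0.10 without WT replicate 2 to 0.10 without WT replicate 3, and under quantile normalization the log2 fold changes of *Eef1a1* and *Eef2* were 0, since each holds the same rank in all libraries.

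Whether the replicate numbers pair the libraries is not known. With the replicate number as a block, 17 large and 14 small subunit genes were higher, with 5727 genes called in all against 6056. *Eef2* was no longer called (adjusted p = 0.075). Count models in edgeR and DESeq2, planned where whole reads could be recovered, were not run. Depth limits *Rpl39l*, *Rpl3l* and *Rpl6l*. Being relative to each library, the values say nothing of the absolute amount of ribosomal protein mRNA per cell.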
